A study of Solanum lycopersicum with 86 samples.

Results

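The comparison was between the tomato cultivars Moneymaker and M82 (Solanum lycopersicum) in the pith of the first internode under far-red light. It used 13 of the 86 libraries of the series, chosen by sample title: Moneymaker at 30 h (4 libraries) and 48 h (4), and M82 at 30 h (2) and 48 h (3). The labels give both cultivars as wild type. All plants had 7 days of white light at 20 °C, 70% humidity and a day of 16 h light and 8 h dark. They were then kept in white light of 200 PAR (photosynthetically active radiation) with added far-red, which set the ratio of red to far-red to 0.21, until harvest at 30 or 48 h. Pith from white light plants (15 libraries) and whole internodes under far-red (30 libraries, 6 to 48 h) served as further sets in which the same cultivar difference was read. The 6 white light Moneymaker pith libraries carry far-red in their treatment tag, against their titles and sample codes, and were grouped by title. The replicate number marks plants of 1 batch, and the labels call the samples biological replicates.

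Far-red light lowers the active fraction of the photoreceptor phytochrome, as light reflected from or passed through neighbouring leaves does. Many plants, tomato among them, answer by stem elongation, which is part of the shade avoidance response. Pith is the parenchyma at the centre of the stem, and its cells enlarge as an internode elongates. M82 is a determinate processing cultivar and Moneymaker an indeterminate cultivar for fresh fruit, so the contrast is between genotypes that differ at many loci.

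Values are scaled reads, the authors' read counts multiplied by 1 factor per library. The 13 libraries ranged in depth from 0.769 M to 11.6 M reads, with 3.26 M reads at the median. Genes are given by Solyc identifier, in which the number before the letter g is the chromosome. No identifier matched the gene table used for names, so no gene name or function is given, and at most 2 genes in each direction are printed for each comparison.

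One of the 8 Moneymaker libraries went against its label, and the results are therefore given with it and without it. Cultivar markers were taken from the 58 internode libraries, none of which is in the comparison: 6 genes for Moneymaker and 10 for M82. In 7 Moneymaker libraries the Moneymaker markers summed to 78.6 to 112 scaled reads and the M82 markers to 0 to 7.17. In the 5 M82 libraries the M82 markers summed to 260.2 to 472. The library labelled Moneymaker, 48 h, replicate 3 held 274.6 scaled reads of M82 markers and 4.90 of Moneymaker markers, and it has 0.915 M reads. It sits among the M82 libraries on both measures.

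M82 libraries also held some Moneymaker marker reads. The sum was 18.8 in the library at 48 h, replicate 1, or 6.74% of its marker reads (95% Wilson interval 5.86% to 7.74%). It was 9.96 in replicate 4 of that time and 5.02 in replicate 1 of 30 h. No such read was seen in the remaining M82 libraries, where 3 reads would have been 0.836 scaled reads (replicate 3 of 30 h) and 0.594 (replicate 2 of 48 h). Moneymaker libraries held M82 marker reads too. In Moneymaker at 30 h, replicate 4, 24 reads were of M82 markers, and Moneymaker markers made 94.0% of marker reads (95% Wilson interval 91.2% to 95.9%). In replicate 1 of 30 h 9 reads were of M82 markers, and the share was 96.7%. It was 98.2% to 100% in the other Moneymaker libraries, the library against its label set aside. The intervals and these limits cover counting error alone. Over the series, 4 Moneymaker and 6 M82 libraries went against their cultivar label, among them 2 of the white light pith and 1 of the far-red internode libraries.

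**Figure D1:**
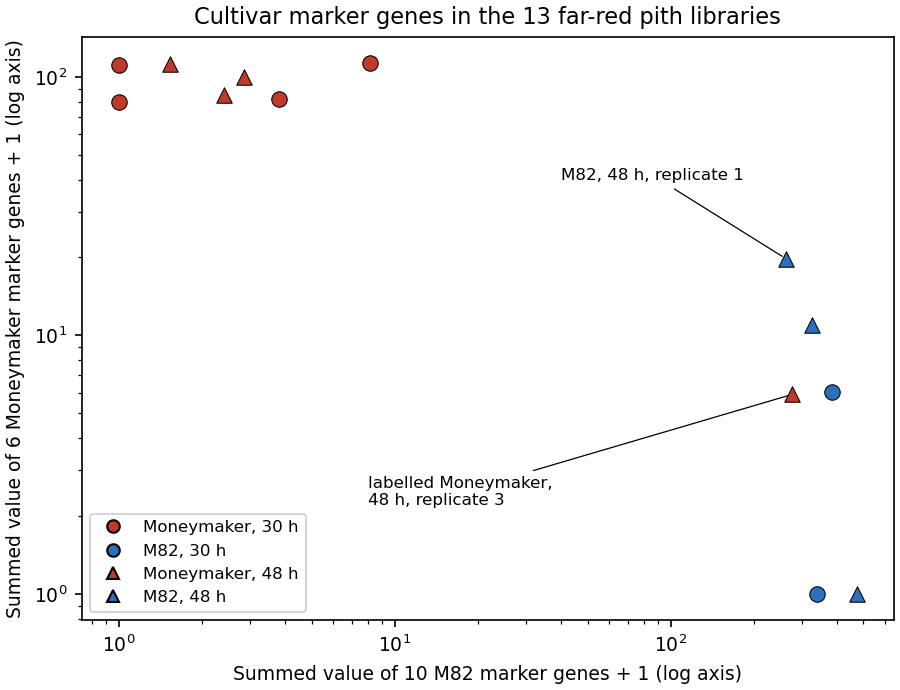
Summed scaled reads of 10 M82 marker genes (x axis, plus 1, log) against those of 6 Moneymaker marker genes (y axis, plus 1, log) in the 13 far-red pith libraries; circles are 30 h, triangles 48 h, red Moneymaker and blue M82 by label. The red triangle at the lower right is the library labelled Moneymaker, 48 h, replicate 3, at 274.6 and 4.90.

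Light, time and tissue were checked by genes from libraries outside the comparison. A far-red score, the mean log2(value + 1) of 39 genes higher under far-red in internodes of both cultivars minus that of 60 genes lower there, was 0.10 to 1.68 in the 13 libraries and -2.82 to -1.38 in white light pith. A time score made the same way was 0.77 to 1.09 in the 6 libraries at 30 h and -2.40 to -1.89 in the 7 at 48 h. The 145 genes higher in whole internodes than in pith under white light had a mean log2(value + 1) of 3.10 to 4.56 in the 13 libraries and 4.61 to 5.70 in far-red internodes of 30 and 48 h. On that list far-red pith and far-red internodes did not overlap, by a narrow margin. White light pith reached 5.32 (Moneymaker at 48 h, replicate 6), within the range of those internodes. The 35 genes higher in pith than internodes did overlap, with a mean of 4.02 to 5.05 in the 13 libraries and 3.79 to 4.78 in the same internodes. No library of the 13 went against its light or time label on these scores, and the 6 white light Moneymaker pith libraries had far-red scores of -2.81 to -2.43, on the side of white light. Named markers of xylem, phloem, epidermis or green tissue could not be used, because no identifier had a name.

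With all 13 libraries as labelled, few genes differed between the cultivars. Of 18780 genes tested, 2 were higher in Moneymaker (0.0106%) and 10 higher in M82 (0.0532%) with time as a block, together 0.0639% of those tested (limma on log2(value + 1), adjusted p under 0.05 by Benjamini-Hochberg). Without the library that went against its label, 19 genes were higher in Moneymaker (0.101%) and 35 higher in M82 (0.186%) among 18795 tested, together 0.287%. All 12 genes called with it were among these 54, and all 54 had the same sign with it.

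The library was left out on the strength of the 16 marker genes, and all 16 are among the 54, so their part of the count follows from that choice. The other 38 called genes, 13 higher in Moneymaker and 25 higher in M82, took no part in it. At 36 of these 38 the library against its label lay nearer to the mean of M82 at 48 h than to that of the other Moneymaker libraries at 48 h, on the log2 scale. Over all genes tested it lay nearer M82 at 48.8%.

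The largest difference was in a gene higher in M82. Solyc06g035940, on chromosome 6, read 150.1 and 135 scaled reads in M82 at 30 h and 148, 181 and 102 at 48 h. In Moneymaker it read 0.625, 0, 0.598 and 0 at 30 h and 0.176, 0.265 and 1.16 at 48 h, while the library against its label read 125. The 5 M82 libraries and the library against its label were high and the other 7 Moneymaker libraries were at or near 0. The log2 fold change of Moneymaker over M82 was -6.69 ± 0.33 (SE, 7 against 5 libraries, limma, adjusted p = 1.09e-09) without that library and -5.78 ± 0.95 (adjusted p = 0.0553) with it. Summed over libraries, M82 had 3291 reads and Moneymaker 12, a ratio at equal depth of 341 (exact 95% counting interval 195 to 661). This interval, like those of the other read ratios, leaves out the spread between libraries.

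Solyc02g069760, on chromosome 2, read 34.1 and 11.99 scaled reads in M82 at 30 h and 22.2, 44.9 and 54.4 at 48 h. It was at 0 in the 4 Moneymaker libraries at 30 h and read 0, 0 and 0.232 at 48 h, with 33.1 in the library against its label. The groups did not overlap once that library was set aside. The log2 fold change was -4.82 ± 0.40 (SE, 7 against 5, limma, adjusted p = 4.69e-06) without it and -4.15 ± 0.69 (adjusted p = 0.0242) with it. In reads this was 628 against 1, a ratio at equal depth of 782 whose counting interval ran from 139.8 to 30919, since it rests on a single Moneymaker read.

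As labelled, the smallest p among M82-higher genes belonged to Solyc12g044190 and Solyc06g017977, on chromosomes 12 and 6. Solyc12g044190 read 19.1 and 13.9 in M82 at 30 h and 16.0, 28.9 and 7.66 at 48 h, against 0 to 0.938 in 7 Moneymaker libraries and 4.90 in the library against its label. Its log2 fold change was -3.55 ± 0.49 (8 against 5, limma, adjusted p = 0.0047) as labelled and -3.89 ± 0.40 without the library. Solyc06g017977 read 31.1 and 17.0 in M82 at 30 h and 9.20, 57.8 and 19.1 at 48 h. It was at 0 in 6 of the 7 other Moneymaker libraries, read 0.0881 in the remaining one and 8.58 in the library against its label, and its log2 fold change was -4.07 ± 0.56 (adjusted p = 0.0047) as labelled and -4.53 ± 0.43 without it. For both genes the library against its label lay below every M82 library and above the other Moneymaker libraries.

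The 19 genes higher in Moneymaker had a median difference of 2.81 on the log2 scale and a largest one of 3.72. Solyc04g016550, on chromosome 4, read 16.9, 25.2, 32.0 and 13.1 scaled reads in Moneymaker at 30 h and 16.7, 15.3 and 31.8 at 48 h, with 0 in the library against its label. In M82 it read 1.00 and 0 at 30 h and 2.93, 0 and 0.766 at 48 h. The highest M82 value was in the 48 h, replicate 1 library, which also had the most Moneymaker marker reads, and whether those reads entered with it was not tested. The log2 fold change was 3.69 ± 0.42 (7 against 5, limma, adjusted p = 8.48e-05) without the library against its label and 3.05 ± 0.68 (adjusted p = 0.151) with it.

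Solyc12g027897, on chromosome 12, read 7.19, 30.5, 26.3 and 10.4 in Moneymaker at 30 h and 18.2, 24.1 and 23.7 at 48 h, with 4.90 in the library against its label. M82 was at 0 in both libraries at 30 h and read 2.93, 0 and 1.53 at 48 h. The 2.93 was in the 48 h, replicate 1 library, which had the most Moneymaker marker reads of the M82 libraries. Most M82 reads of this gene came from that library, so the ratio of reads rests largely on it. Whether they entered with its Moneymaker marker reads was not tested. The groups did not overlap in either reading of the labels. The log2 fold change was 3.42 ± 0.50 (8 against 5, limma, adjusted p = 0.0047) as labelled and 3.72 ± 0.45 (adjusted p = 0.000159) without the library. Without it, 553 reads against 31 gave a ratio at equal depth of 14.3 (exact counting interval 9.98 to 21.3). That interval leaves out the spread between libraries. Mean values were 20.0 scaled reads in 7 Moneymaker libraries and 0.893 in 5 M82 libraries.

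Solyc08g074910, on chromosome 8, read 13.4 to 28.7 in Moneymaker at 30 h and 17.2 to 54.8 in 3 Moneymaker libraries at 48 h, against 0 to 1.51 in M82 at 30 h and 0 to 6.98 at 48 h. The library against its label read 6.13, below the highest M82 library. That M82 library was 48 h, replicate 1, which had the most Moneymaker marker reads of the M82 libraries. Its log2 fold change was 3.43 ± 0.52 (limma, adjusted p = 0.0070) as labelled and 3.72 ± 0.49 (adjusted p = 0.000405) without the library.

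**Figure D2:**
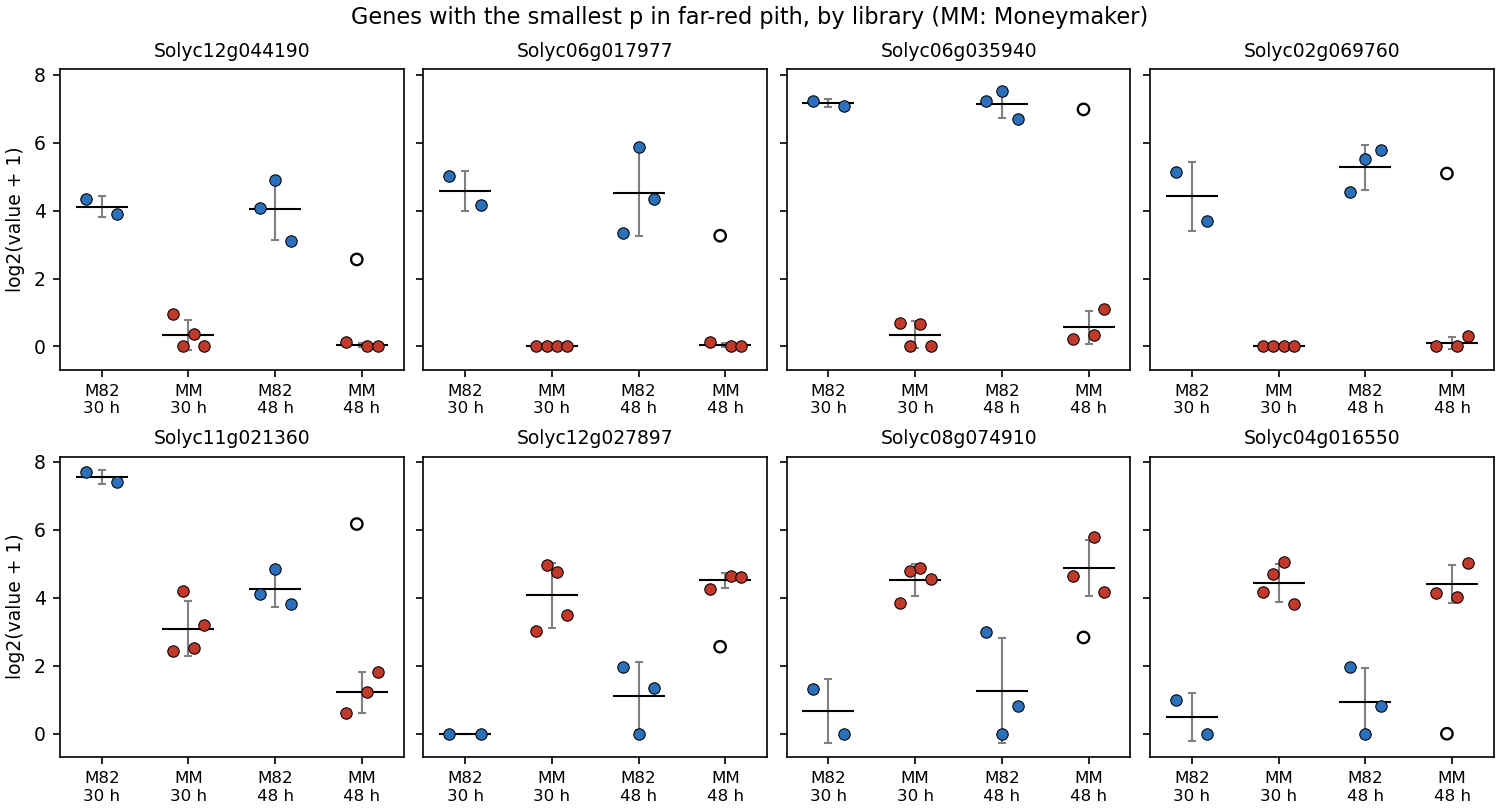
log2(value + 1) of 8 genes in each far-red pith library (points; bars are group means, whiskers SD), M82 in blue and Moneymaker in red at 30 and 48 h; the open circle is the library labelled Moneymaker, 48 h, replicate 3, left out of the means. For the genes higher in M82 the open circle lies above the other Moneymaker points, for example at 6.98 for Solyc06g035940.

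The sizes of the 54 differences were read in the same libraries that chose the genes, so they are biased upward. At a median standard error of 0.319 over all genes tested, small differences could hardly pass. Sizes ran from 1.16 to 6.69 on the log2 scale with a median of 2.79, and 19 genes differed at least 8-fold on that scale. The cultivars did not overlap at 47 of the 54, against 0.654% of all genes tested, in the same libraries that chose them. In 12 genes, 11 of them higher in M82, the lower cultivar had at most 3 reads over its libraries. The M82 sums include the 48 h, replicate 1 library, which held 10.4 M reads and Moneymaker marker reads. Its part in this split was not tested, and the share of all tested genes with so few reads is not given. Mean values in the higher cultivar, not per gene length, ran from 2.74 to 493.1 scaled reads with a median of 18.2. As these are bulk samples, fewer cells of a type and less RNA per cell cannot be told apart. Whether reads of both cultivars were aligned equally well at these genes was not tested, and no source used here gives the genome build.

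The counts depended on the replicate block and on single libraries. Among the 13 libraries, replicate 2 was only in M82 and replicate 5 only in Moneymaker. Under the block these have no direct part in the cultivar difference. The block also uses up degrees of freedom, and the power this costs was not tested. With the replicate number as a block, no gene passed as labelled, and the 4 genes named above from that fit each had an adjusted p of 0.119 (limma). Without the library against its label 25 genes passed under the block, 8 higher in Moneymaker and 17 higher in M82, all among the 54. As labelled, leaving out the library against its label gave 54, leaving out M82 at 48 h, replicate 1 gave 15 and replicate 4 gave 8, and leaving out any 1 of the other 10 libraries gave 4 to 7. From the 54, leaving out a further library gave 34 (M82 at 30 h, replicate 1) to 55. Leaving out M82 at 48 h, replicate 1, with its Moneymaker marker reads, gave 49, of which 48 were among the 54.

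Genes called at either harvest time pointed the same way at the other. As labelled, no gene passed at 30 h or at 48 h (limma, 964 and 614 of 18780 at an unadjusted p under 0.05; edgeR 0 and 0, DESeq2 3 and 0). Without the library against its label, 28 genes passed at 30 h, 7 higher in Moneymaker (0.0372% of those tested) and 21 higher in M82 (0.112%), together 0.149%. At 48 h 15 passed, 1 higher in Moneymaker (0.00532%) and 14 higher in M82 (0.0745%), together 0.0798%. All 15 were among the 28, and all 28 had the same sign at 48 h. Both contrasts share 1 estimate of spread, and under the replicate block 5 and 1 genes passed.

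Single libraries moved these counts. The 28 at 30 h became 81 without M82 replicate 1 and 2 without M82 replicate 3, the other M82 library of that time. They became 18 and 15 without Moneymaker replicates 1 and 4 of 30 h, 17 without its replicate 1 of 48 h, and 19 to 25 without any of the others. The 15 at 48 h became 3 and 7 without M82 at 48 h, replicates 2 and 4, and 6 and 7 without Moneymaker at 48 h, replicates 1 and 4. They were 10 without Moneymaker at 48 h, replicate 5, and 12 to 19 without any of the rest. With all 13 libraries as labelled, leaving out M82 at 30 h, replicate 1 gave 25 calls at 30 h.

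Solyc11g021360, on chromosome 11 and no cultivar marker, was next to Solyc06g035940 among M82-higher genes by p at 30 h. It read 207 and 170.0 scaled reads in M82 at 30 h and 16.4, 28.1 and 13.02 at 48 h. In Moneymaker it read 4.38, 17.2, 4.78 and 8.19 at 30 h and 0.529, 1.32 and 2.55 at 48 h, with 71.1 in the library against its label. Both cultivars were lower at 48 h than at 30 h, and M82 was above Moneymaker at each time, the library against its label set aside. The log2 fold change was -4.47 ± 0.54 at 30 h (limma, adjusted p = 0.00186) and -3.05 ± 0.51 at 48 h (adjusted p = 0.0255), and the test of the change in the difference gave 1.43 ± 0.74 (adjusted p = 1.00).

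The other printed genes kept their direction at both times. Solyc06g035940 had -6.82 ± 0.49 at 30 h and -6.58 ± 0.46 at 48 h, and Solyc04g016550 had 3.93 ± 0.63 and 3.47 ± 0.59. Solyc02g069760 had -4.42 ± 0.59 and -5.18 ± 0.56. Solyc12g027897 had 4.07 ± 0.66 at 30 h and 3.41 ± 0.63 at 48 h, where it missed the threshold (limma, adjusted p = 0.0513).

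No gene passed the test that the cultivar difference changed between 30 and 48 h. With the library against its label left out, 0 of 18795 genes were called (0%; limma), and 352 had an unadjusted p under 0.05; as labelled the counts were 0 and 483, and edgeR and DESeq2 called 0. The median standard error of that change was 0.65 on the log2 scale, so differences of a few fold between the times were within its error.

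The cultivar difference in far-red pith was also present in white light pith, in libraries the comparison did not use. Without libraries that went against a cultivar label, 118 of 19056 genes (0.619%) differed in white light pith between 6 Moneymaker and 7 M82 libraries, 61 higher in Moneymaker (0.32%) and 57 higher in M82 (0.299%). Among the 7 M82 libraries, replicates 5 and 6 labelled 48 h had time scores of -0.57 and 1.19, unlike the other 48 h libraries. They were blocked as 48 h here and kept that label in the test of light, and the effect was not tested. Of the 54 far-red pith genes 52 were tested in white light pith, 52 had the same sign and 43 were called the same way. Of the 36 tested that were no cultivar markers, 36 had the same sign and 27 were called. With all 15 libraries as labelled, 11 genes (0.0575%) passed in white light pith, 9 higher in Moneymaker (0.0471%) and 2 higher in M82 (0.0105%), or 127 under the replicate block, and 6 of the 52 were among them, with 52 of the same sign.

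In white light pith, Solyc06g035940 had a log2 fold change of -5.40 ± 0.40, Solyc02g069760 of -4.38 ± 0.33, Solyc04g016550 of 3.49 ± 0.45 and Solyc12g027897 of 3.65 ± 0.38. The difference under far-red minus that under white light was -1.34 ± 0.50 for Solyc06g035940 (limma, adjusted p = 0.811). Over all genes no difference between the lights was called (0 of 18959, 0%; limma, 1087 at an unadjusted p under 0.05; as labelled edgeR called 0 and DESeq2 1).

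Genes higher in whole internodes than pith differed in balance between the cultivars in white light pith. Their list was chosen on white light libraries, these pith libraries among them, so the reading in white light pith is not independent of that choice. Of 145 such genes 140 were tested, and 127 were higher in Moneymaker in white light pith, with a median log2 fold change of 0.62 and 11 called. Over all genes tested there, 51.6% were higher in Moneymaker, the median was 0.01 and 0.32% were called higher in Moneymaker. In far-red pith 72 of 140 were higher in Moneymaker, against 49.7% of all genes, the median was 0.03 and none was called. Their mean log2(value + 1) was 3.10 to 4.56 in M82 and 3.29 to 4.50 in 7 Moneymaker far-red pith libraries, which overlap. Their part in the white light values was not tested.

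Most of the far-red pith genes were also called in whole internodes under far-red. Without the 1 library against its label, 147 of 18997 genes (0.774%) differed between 18 Moneymaker and 11 M82 internode libraries, 70 higher in Moneymaker (0.368%) and 77 higher in M82 (0.405%). As labelled these were 151 (0.795%), 68 (0.358%) and 83 (0.437%). Of the 54 far-red pith genes 53 were tested there, 53 had the same sign and 51 were called the same way. Of the 37 tested that were no cultivar markers, 37 had the same sign and 35 were called; the markers themselves were chosen on internode libraries. Whole internodes contain pith, and libraries of both tissues share batches. Of the 54 genes, 42 were called the same way in white light pith and in far-red internodes, and 1 that was tested in both, higher in M82, was called in neither. A further gene higher in M82 was tested in neither set.

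Read in the other direction, most internode genes had the same sign in far-red pith and a smaller share was called. Of the 70 genes higher in Moneymaker in far-red internodes, 68 were tested in far-red pith, 65 had the same sign and 19 were called, with a median log2 fold change of 1.35, where 0.101% of all genes were called higher in Moneymaker. Of the 77 higher in M82, 74 were tested, 73 had the same sign and 32 were called, with a median of -1.34, where 0.186% of all genes were called higher in M82. The median over all genes tested in far-red pith was -0.0025, and 49.7% were above 0. No gene passed the test of a cultivar difference in pith minus that in internode (0 of 18940, 0%; limma, 310 at an unadjusted p under 0.05; as labelled edgeR 0 and DESeq2 0). As labelled, 2 genes passed it when M82 at 30 h, replicate 1 was left out.

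Solyc06g035940 had a log2 fold change of -6.33 ± 0.34 in far-red internodes, and Solyc06g017977 of -3.33 ± 0.33, against -4.53 ± 0.43 in far-red pith. The internode values cover 6 to 48 h, whereas the test of the tissue difference used pith and internodes of 30 and 48 h (15 Moneymaker and 11 M82 libraries in all). In that fit the difference of Solyc06g017977 in pith minus that in internodes was -1.90 ± 0.60 (limma, adjusted p = 1.00).

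**Figure D3:**
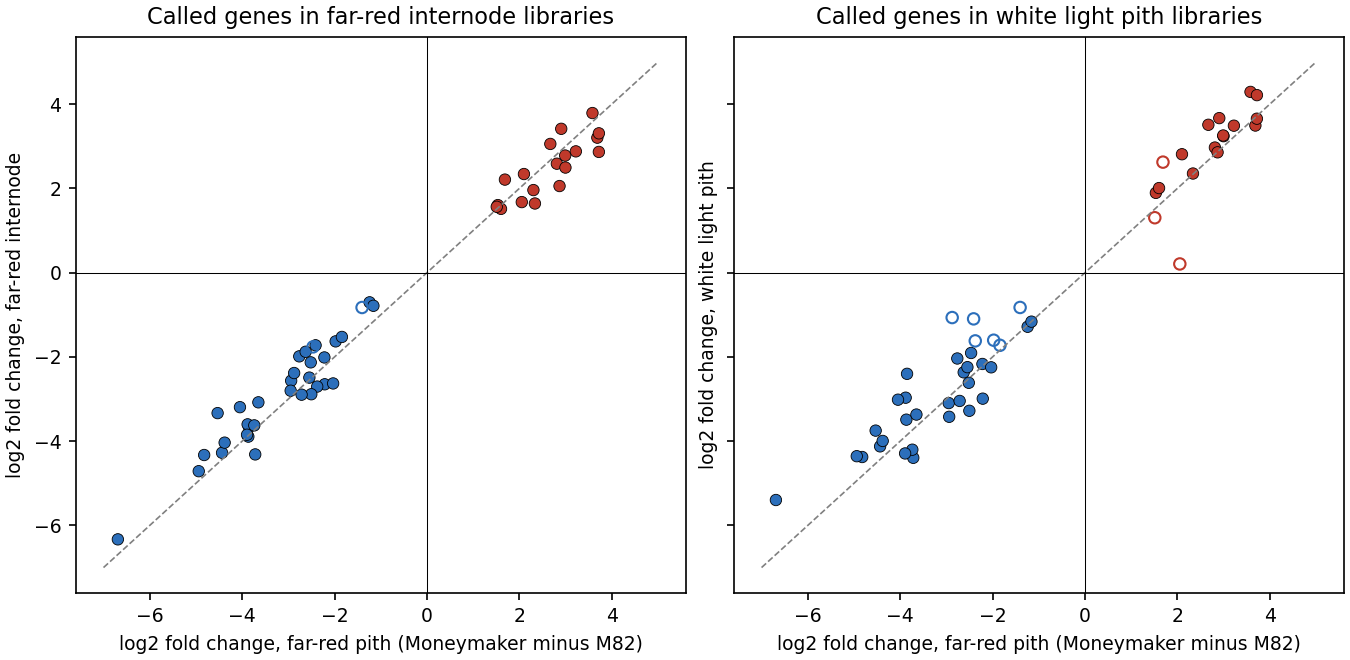
log2 fold change (Moneymaker minus M82) of the called genes in far-red pith (x axis) against far-red internodes (left, 53 genes) and white light pith (right, 52 genes), without libraries against a cultivar label; red is higher in Moneymaker, blue higher in M82, filled points passed in the second set and the dashed line marks equal values. Every point lies in the quadrant of its own sign, and 51 are filled on the left and 43 on the right.

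The called genes were unevenly spread over the chromosomes given by their identifiers. Chromosome 4 held 13 of them among 1550 genes tested (0.839%), 6 higher in Moneymaker and 7 higher in M82, and chromosome 12 held 9 among 1228 (0.733%), 3 and 6. Chromosome 7 held none among 1341, and the unassigned chromosome 0 none among 312. The densest run of 50 consecutive tested genes was on chromosome 4, where 6 were called, 5 higher in Moneymaker and 1 higher in M82. No test of this spread was made.

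Some called genes were direct neighbours. Among tested genes in identifier order, 8 pairs of neighbours were both called, covering 14 genes, and 6 of the pairs pointed the same way and 2 in opposite directions. Whether overlapping neighbours or near-identical copies share reads could not be told apart from the table, since no source used here gives the strand setting.

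**Figure D4:**
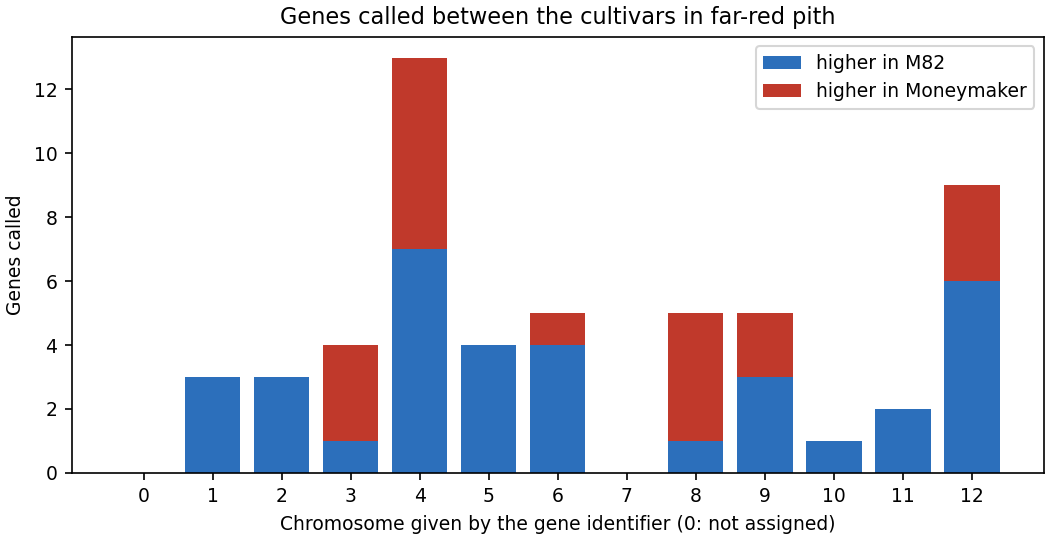
Number of genes called between the cultivars in far-red pith (7 against 5 libraries) on each chromosome, stacked by direction, blue for higher in M82 and red for higher in Moneymaker. Chromosomes 4 and 12 carry 13 and 9 of the 54 genes and chromosomes 0 and 7 none.

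The level of the far-red score under far-red also differed between the cultivars. The far-red score was 1.38 and 1.68 in M82 at 30 h and 1.06, 1.26 and 1.28 at 48 h. In Moneymaker it was 0.44, 0.80, 0.99 and 0.82 at 30 h and 0.41, 0.57 and 0.10 at 48 h, and 0.40 in the library against its label. The 5 libraries labelled M82 were above the 8 labelled Moneymaker without overlap, and on this measure the library against its label lay with Moneymaker. Grouped with M82, as its markers read, it would make the cultivars overlap at 48 h, and that grouping was not tested. The mean difference within times, Moneymaker minus M82, was -0.80 (8 against 5; exact two-sided permutation within times, p = 0.0019, the smallest that 525 splits allow). It was -0.81 without the library (7 against 5; exact permutation, p = 0.0033, the smallest of 300 splits). The permutation treats libraries as independent, although they share batches. The score and its permutation tests, those in white light pith included, were added after the data were seen.

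Both sides of the score contributed, and no single gene of it passed. Of the 39 genes higher under far-red in internodes 37 were tested in far-red pith, and 31 were higher in M82, with a median log2 fold change of -0.51 without the library. Of the 60 genes lower under far-red 56 were tested, and 45 were higher in Moneymaker, with a median of 0.32. None of either list was called, against 0.287% of all genes, of which 50.3% were higher in M82. At 30 h the far-red-induced list separated the cultivars, with means of 4.91 to 5.11 in M82 and 4.10 to 4.71 in Moneymaker, while the repressed list overlapped, with 3.23 to 3.74 and 3.66 to 3.81. At 48 h the repressed list separated them, with 3.88 to 4.11 in M82 and 4.45 to 4.597 in 3 Moneymaker libraries, while the induced list overlapped, with 4.94 to 5.39 and 4.54 to 5.10.

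A difference in the same direction was seen without far-red. In white light pith the score was -2.71 to -1.38 in 7 M82 libraries and -2.81 to -2.43 in 6 Moneymaker libraries, which overlap. The mean difference within times was -0.66 (6 against 7; exact two-sided permutation, p = 0.0114), and -0.48 with the 2 libraries against their label (exact permutation, p = 0.0602). Among the white light M82 libraries labelled 48 h, replicate 6 had a time score of 1.19, in the range of 30 h, and replicate 5 one of -0.57, between the times. Whether the score difference depended on light was not tested. For single genes, the cultivar difference under far-red minus that under white light had a median of -0.16 over 37 induced genes, -0.10 over 59 repressed genes and -0.03 over all genes, and none of either list was called. In far-red internodes, from which the lists came, the score was 1.60 to 2.00 in M82 and 0.42 to 1.00 in Moneymaker at 30 h, and 0.23 to 0.95 and -0.06 to 0.28 at 48 h.

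**Figure D5:**
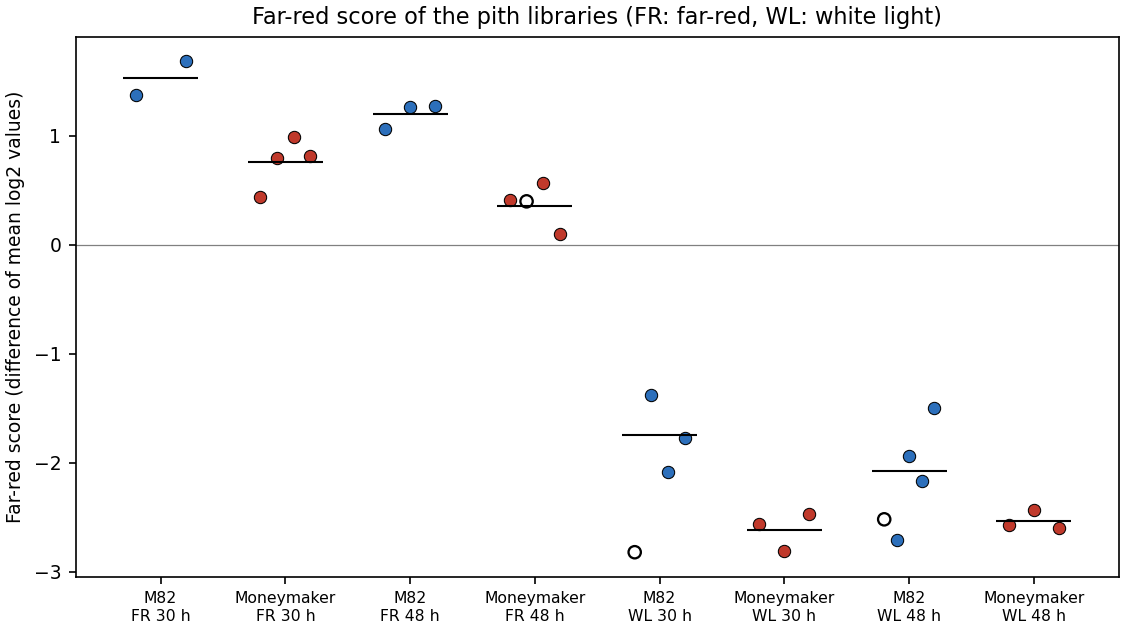
Far-red score of each pith library (y axis, difference of mean log2(value + 1) between far-red-induced and far-red-repressed genes) by cultivar, light and time; bars are means without the open circles, which are libraries against their cultivar label. Under far-red the 5 M82 libraries lie at 1.06 to 1.68 and the 8 labelled Moneymaker at 0.10 to 0.99.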

How the data were processed

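Random-primed RNA-seq libraries came from mRNA caught by its polyA tail, per the labels' protocols. The submitters' processing notes name featureCounts, STAR, Trim Galore and FastQC, with no version. No source used here gives the genome build, annotation or strand setting. Each deposited value is a signal per gene and library, which the authors made by scaling read counts with 1 factor per library. Within each library 100% of nonzero values up to 2000 reads were whole multiples of 1 read (tolerance 0.02 of a read), so reads were recovered for count tests and depth. The origin of these factors is not stated.

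The 13 libraries were grouped by sample title, and the members, lists and tests were chosen with earlier results of these data known. Genes with a mean of at least 1 over the libraries in a fit were tested with limma 3.58.1 in R 4.3.3, using its trend and robust options, after a log2 transform of the value plus 1, with time as a block for the main contrast and group means for the others, and Benjamini-Hochberg adjustment over all genes tested. Fold changes are on that scale, which understates low genes. Recovered reads were tested with edgeR 4.0.16 (quasi-likelihood) and DESeq2 1.42.0 as alternatives, besides other scaling, pseudocounts, filters, a fit of all 24 groups, left-out libraries and the replicate block. The scripts were tested on simulated data.

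Cultivar markers had a median of at least 8 in internodes of 1 cultivar and at most 0.5 in the other. A library went against its label where the other cultivar's markers gave the larger sum. The far-red score, its test and the fits without that library were added after the data were seen. The named genes were, per comparison and direction, the 2 with the smallest p among genes called that differed at least 2-fold and whose mean log2 value was 1 or more. None of 23050 identifiers matched the reference table, so lists and cell type markers defined by gene names could not be applied.

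Replicate numbers mark a shared batch per the series' design. Residuals of libraries with the same number and time correlated at 0.178 on average (4 pairs, -0.129 to 0.469), against -0.0552 for other numbers (13 pairs), so blocked counts are given where they change a result. p-values measure the spread between these libraries.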

Additional observations from a re-analysis of the deposited data

Results flagged for a closer look

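Among 26 group values tested for a library far from the rest, 6 stood apart; chance flags about 1 in 20 groups. Of these, 5 were in the library labelled Moneymaker, 48 h, replicate 3, set against the 3 other Moneymaker libraries at 48 h, and share 1 source. Its summed M82 markers were 274.6 scaled reads. Its log2(value + 1) was 6.98 for Solyc06g035940, 5.09 for Solyc02g069760, 3.26 for Solyc06g017977 and 2.56 for Solyc12g044190, all of them M82 markers. The other was Moneymaker at 30 h, replicate 5, where the genes higher in internodes than pith averaged 4.50 as log2(value + 1), against 3.70 to 3.83 in the other 3 libraries of its group.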

How the results depend on the processing

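As labelled, the 12 genes of the far-red pith comparison became 2 with edgeR and 46 with DESeq2. Of the 12, 1 was called by edgeR and 4 by DESeq2. The count was 7 with a pseudocount of 0.25, 28 in a fit of all groups and 54 without the library against its label. It was 0 with the replicate block and 4 to 54 leaving out 1 library. The 0 genes at 30 h became 3 with DESeq2, 5 in a fit of all groups and 28 without that library (0 to 28 leaving out 1), and the 0 at 48 h became 15 without it (0 to 15). The tests of time, light and tissue gave 0, but for 1 gene with DESeq2 for light and 2 for tissue without 1 M82 library (0 to 2). White light pith went from 11 to 102 with DESeq2, 7 with size factors, 0 with the smaller pseudocount, 5 with no filter, 1 with a mean of at least 5, 60 in the fit of all groups, 118 without libraries against a label and 127 with the block. Far-red internodes went from 151 to 96 with a mean of at least 5. Without the library against its label, the 54 became 94 with DESeq2, 98 in the fit of all groups and 25 with the block (34 to 55 leaving out 1); edgeR called 48, all among the 54. The 28 at 30 h became 17 with edgeR, 44 with DESeq2, 14 with the smaller pseudocount, 14 with a mean of at least 5, 65 in the fit of all groups and 5 with the block (2 to 81). The 15 at 48 h became 38 with DESeq2, 6 with a mean of at least 5, 36 in the fit of all groups and 1 with the block (3 to 19). The densest window went from 12% to 6% with 100 genes. No direction of a printed gene turned, the far-red score stayed between -0.93 and -0.72 in its alternatives, and the replicate block changed no other count by over 1.5 times. The causes of these shifts were not tested. Depth limits low genes, since 1 read was worth 1.33 scaled reads in the shallowest library.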
